A study of Mus musculus with 6 samples.

Results

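Of the 35527 genes in the deposited transcript tables, 10 heat shock genes were followed across newborn mouse pancreas with and without miR-216a. They were chosen by name: the inducible HSP70 genes Hspa1a and Hspa1b, the small heat shock gene Hspb1, the HSP110 gene Hsph1, the constitutive HSP70 gene Hspa8, the HSP90 gene Hsp90aa1, the co-chaperone gene Dnajb1, the mitochondrial chaperonin genes Hspd1 and Hspe1, and the heat shock factor gene Hsf1. All 10 passed the filter on low counts, which kept 15805 genes. The study compared whole pancreas of miR216a-/- mice (KO, 3 libraries) with that of wild type mice (WT, 3 libraries), all C57BL/6 and 1 day old, and every library stands for a separate donor. The labels name the tissue as pancreas and do not give the sex, the litter or how the null allele was made. MiR-216a itself was not analysed here, so the genotype rests on the labels. Depth was between 20565387 and 23028718 estimated reads per library.

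Heat shock proteins are chaperones that bind unfolded or partly folded proteins. HSP70 proteins take up exposed hydrophobic stretches and are driven by J-domain partners such as DNAJB1 and by nucleotide exchange factors such as HSPH1. HSP90 acts later, on signalling proteins and receptors, and HSPD1 with its lid HSPE1 folds proteins imported into mitochondria. HSF1 is held inactive by chaperones in unstressed cells and, when they are drawn off by unfolded protein, binds inverted nGAAn repeats in the promoters of the inducible genes. Acinar cells of the pancreas make large amounts of secreted enzymes, which are folded by a separate set of chaperones in the endoplasmic reticulum (ER).

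The promoters are shown because 6 of the 7 members with a promoter window held the letters of 2 facing nGAAn units. Windows ran from 250 bases before to 50 bases after each RefSeq start (GRCm38.p6, 300 bases) and were available for 7 members. Hspa8, Hsp90aa1 and Hsf1 are named only. The motifs searched were GAANNTTC and TTCNNGAA, which read the same on both strands and can overlap each other. Either was found in at least 1 window of Hspa1a, Hspa1b, Hspb1, Hsph1, Hspd1 and Hspe1, while neither was in the windows of Dnajb1. Of all 32851 windows, 7.86% held GAANNTTC, 8.52% held TTCNNGAA and 15.06% held either. These shares are per window, whereas the members were counted per gene, over 10 windows in all. The Hspd1 window at chr1:55088194-55088493 held neither motif. A match describes these letters only, and binding was not measured. Stretches around the matches follow, 5′ to 3′ on the strand named, with the matching letters in capitals. Only bases before the RefSeq starts, or between the main Hspd1 and Hspe1 starts, are printed. The Hsph1 matches GAAAGTTC and TTCTGGAA, which lie past its RefSeq starts, are thus not shown. The printed Hsph1 match, at 149636362-149636369, lies within the annotated gene range of GENCODE M21, which begins at 149636376 on the minus strand. The Hspd1-Hspe1 stretch likewise lies within the annotated Hspd1 range, which reaches 55088243. The Hspa1a stretch is chr17:34972187-34972306 (minus strand), the Hspa1b stretch is chr17:34959269-34959388 (minus), the Hspb1 stretch is chr5:135887769-135887868 (plus), the Hsph1 stretch is chr5:149636337-149636396 (minus), and the stretch between the main starts of Hspd1 and Hspe1 is chr1:55088025-55088131 (plus).
Hspa1a: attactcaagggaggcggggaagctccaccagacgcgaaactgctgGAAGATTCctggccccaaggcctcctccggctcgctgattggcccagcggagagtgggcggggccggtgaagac
Hspa1b: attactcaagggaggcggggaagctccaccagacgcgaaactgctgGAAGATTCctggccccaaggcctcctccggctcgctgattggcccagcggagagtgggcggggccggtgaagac
Hspb1: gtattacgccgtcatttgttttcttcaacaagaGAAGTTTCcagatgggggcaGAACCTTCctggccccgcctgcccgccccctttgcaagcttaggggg
Hsph1: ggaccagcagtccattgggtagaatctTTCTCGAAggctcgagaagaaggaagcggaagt
Hspd1-Hspe1: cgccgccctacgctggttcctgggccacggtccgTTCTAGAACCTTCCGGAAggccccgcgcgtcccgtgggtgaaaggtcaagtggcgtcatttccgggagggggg
The Hspa1a and Hspa1b stretches are the same letter for letter, and over the 250 bases before their starts the promoters differed at 3 bases (98.8% identical). Between Hspd1 and Hspe1 the 3 overlapping matches run together as 1 block, which both genes share because they are transcribed away from each other across 107 bases.

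The microRNA removed in the KO mice is shown for its seed, bases 2 to 8, in capitals. Its mature 5p strand lies at chr11:28757018-28757039 (plus strand, GRCm38.p6, RefSeq).
mmu-miR-216a-5p: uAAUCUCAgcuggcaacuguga
The letters that pair with this seed, TGAGATT or the form GAGATTA with a closing A, were looked for in the longest annotated 3′ UTR of each gene's coding transcripts (GENCODE M21, GRCm38). They were in 0 of the 10 members' UTRs, while 3192 of 21010 genes (15.19%) held at least 1 such site. The longest UTR is not always that of the transcript in use: for Hsf1 it belongs to a transcript with 0 reads in every library, and for Hspb1 to one that held at most 3.53% of its reads. This says only that these letters are not in the UTRs searched.

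Some libraries stood apart before any comparison. KO 3 lay farthest out on the first principal component of the log2 CPM values (32.7% of the variance) and KO 2 on the second (26.7%). Summed acinar marker levels were 100792 to 114389 CPM (counts scaled to library size by TMM) in KO and 87813 to 126427 CPM in WT, with all 7 markers detected in every library, as the pancreas label states. Liver markers summed to 369 CPM in WT 1 and to at most 33.1 CPM in any other library. Erythroid markers were highest in WT 1 (5940 CPM) and KO 2 (4787 CPM). The Y-linked gene Ddx3y was at 0.139 CPM in KO 1, whereas the other 5 libraries held 61.8 to 102 CPM. Endocrine markers summed to 6200 to 6811 CPM in KO mice and 7037 to 9012 CPM in WT mice, without overlap. Only Ins1, Ins2 and Sst, 3 of the 6 markers, were lower in every KO library than in any WT library. Iapp overlapped between groups, and Gcg and Chga had positive log2 fold changes (0.029 and 0.061). The part of endocrine markers in the members' values was not tested. In bulk tissue, fewer cells of a type and less RNA per cell cannot be told apart.

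None of the 10 heat shock genes was called between KO and WT pancreas. Of them, 5 had a positive log2 fold change and 5 a negative one, with a median of -0.0042, against 0.0069 over all genes tested. The small heat shock gene Hspb1 and the inducible HSP70 gene Hspa1a were higher in every KO library than in any WT library. In CPM, the HSP90 gene Hsp90aa1 and the co-chaperone gene Dnajb1 were lower in every KO library than in any WT library. In TPM, which also allow for transcript length, the groups overlapped for both. Hsp90aa1 was at 191.3 in KO 1 and 190.95 in WT 3, and Dnajb1 at 9.28 in KO 1 and 9.10 in WT 1. With edgeR's quasi-likelihood test and Benjamini-Hochberg adjustment over all 15805 genes, the members' adjusted p ran from 0.325 to 0.986. No gene of the whole table passed 0.05 either (0%), and the smallest adjusted p of any gene was 0.205. DESeq2 called 436 of the 15805 genes, 132 higher and 304 lower in KO, and limma-voom called 1 in each direction. Among these were 0 members, and with so small a share of all genes called, 0 of 10 is unremarkable. At an unadjusted p under 0.05, 1 member (Hspb1) was higher, beside 5.62% of all genes, and 1 member (Hsp90aa1) was lower, beside 7% of all genes. Every KO library was above every WT library for 2 of 10 members, beside 9.07% of all genes, and below for 2 of 10, beside 10.3% of all genes. The members' median absolute log2 fold change was 0.12, against 0.16 over all genes.

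**Figure D1:**
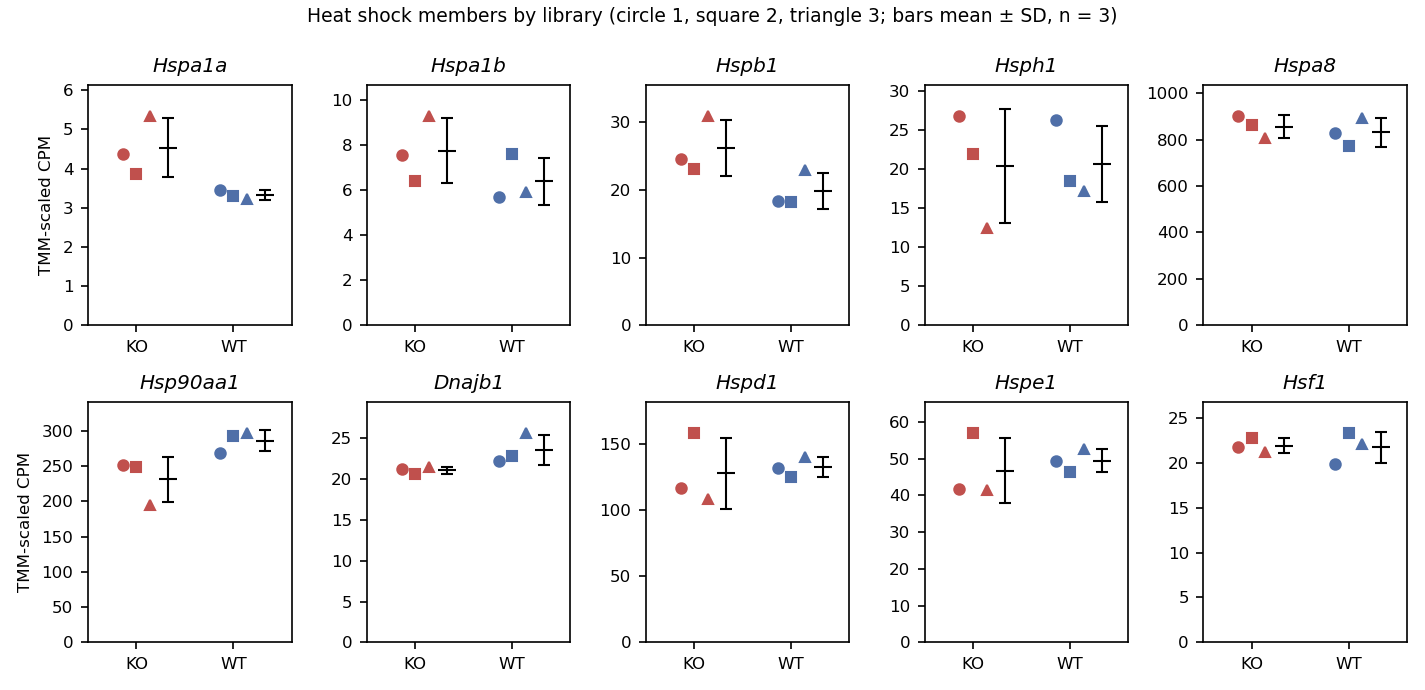
TMM-normalized CPM of each heat shock gene in each library (points), with the group mean and SD (n = 3 each), KO left and WT right; each panel has its own linear axis from 0. The KO and WT points do not overlap for Hspa1a, Hspb1, Hsp90aa1 and Dnajb1.

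The order of the members' levels was compared in TPM, which allow for transcript length as well as library size. Hspa8 led at a mean of 556 TPM over the 6 libraries, followed by Hsp90aa1 at 175 TPM, Hspe1 at 109.9 TPM and Hspd1 at 71.8 TPM. Hspb1 stood at 42.8 TPM and Hsf1 at 17.8 TPM. Hsph1 at 10.5 TPM and Dnajb1 at 9.25 TPM came next, and the inducible pair was last, with Hspa1b at 3.80 TPM and Hspa1a at 1.81 TPM. Only Hsph1 and Dnajb1, among neighbours in this order, had ranges over the libraries that overlapped. The 10 genes together took 995 ± 85.2 TPM in KO and 1003 ± 19.6 TPM in WT (SD, n = 3 each; exact two-sided permutation test, p = 0.9, where 0.1 is the smallest p that 3 against 3 allows). Hspa8 alone made up 57.0 ± 2.38% of that sum in KO and 54.2 ± 1.04% in WT (exact permutation test, p = 0.2). Across 17 such combined quantities, the Benjamini-Hochberg adjusted p was never below 0.68.

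**Figure D2:**
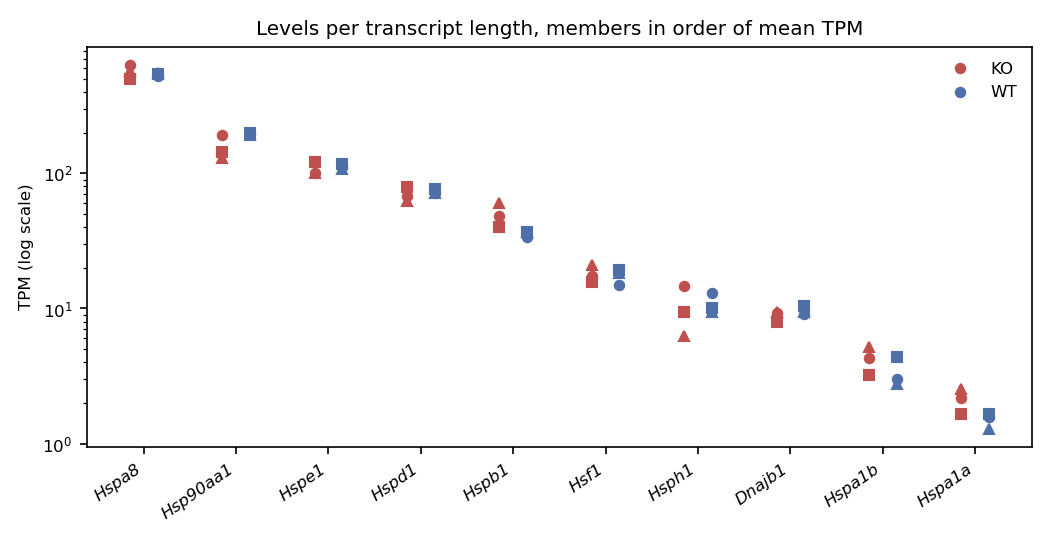
TPM of the 10 heat shock genes on a log10 axis, ordered by their mean, with each KO and WT library as a point. Mean levels span from 1.81 TPM for Hspa1a to 556 TPM for Hspa8. Among neighbours only Hsph1 and Dnajb1 overlap, but some others nearly meet, such as Hsf1 (lowest 15.02) and Hsph1 (highest 14.64).

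Hspa1a and Hspa1b encode near-identical inducible HSP70 proteins, which are scarce in unstressed cells. Each is annotated with 1 single-exon transcript in GENCODE M21 (Hspa1a, ENSMUSG00000091971.3, chr17:34969190-34972156, minus strand; Hspa1b, ENSMUSG00000090877.3, chr17:34956436-34959238, minus strand). Hspa1a was at 4.38, 3.86 and 5.35 CPM in KO 1 to 3, against 3.46, 3.29 and 3.23 CPM in WT 1 to 3. The groups did not overlap, and the 3 WT libraries lay close together while KO 3 was highest. In TPM the gap was narrow, with KO 2 at 1.654 and WT 2 at 1.646. The log2 fold change was 0.45 ± 0.20 (SE; edgeR adjusted p = 0.417), resting on only 67.5 to 124.6 estimated reads per library. Hspa1b was at 7.54, 6.40 and 9.28 CPM in KO mice and 5.69, 7.58 and 5.89 CPM in WT mice. Here KO 3 was again highest, and WT 2 lay above KO 1 and KO 2, so the groups overlapped. The log2 fold change of Hspa1b was 0.28 ± 0.20 (edgeR adjusted p = 0.617), and ran from 0.13 without KO 3 to 0.42 without WT 2. The coding sequences of the pair differ at 8 of 1926 aligned bases (99.58% identical), and the whole transcripts at 165 of 2723 (93.94% identical). The split between them is thus uncertain mainly for reads from the coding sequence. Summed, they stood at 12.3 ± 2.21 CPM in KO mice and 9.70 ± 1.00 CPM in WT mice (SD, n = 3 each; exact permutation test, p = 0.2), and a fit with the pair as 1 gene gave a log2 fold change of 0.34 (edgeR adjusted p = 0.463). Inducible HSP70 transcripts were 1.10 ± 0.200% of the TPM of Hspa1a, Hspa1b and Hspa8 in KO and 0.888 ± 0.184% in WT (exact permutation test, p = 0.3).

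Hspb1 encodes HSP27 (HSP25 in mouse), a small heat shock protein that holds unfolding proteins without using ATP and binds actin filaments. Its gene is at chr5:135887919-135889563 (plus strand; ENSMUSG00000004951.10), and 1 transcript held at least 96.47% of its reads in every library. Hspb1 was at 24.5, 23.2 and 31.0 CPM in KO mice and 18.4, 18.3 and 22.97 CPM in WT mice. The groups did not overlap, although the lowest KO library, KO 2, and the highest WT library, WT 3, nearly met. The means were 26.2 ± 4.16 CPM in KO mice and 19.9 ± 2.68 CPM in WT mice, a log2 fold change of 0.40 ± 0.15 (95% interval 0.057 to 0.75, edgeR adjusted p = 0.325). KO 3 weighed on this value, which was 0.26 without it (edgeR adjusted p = 0.472) and 0.52 without WT 3 (edgeR adjusted p = 0.669). The unadjusted p was under 0.05 in 13 of 17 alternative fits of Hspb1, and not without KO 3, without WT 1, without WT 2 or without WT 1 and KO 2 together. Smooth muscle and mesenchyme markers summed to 4289 to 6856 CPM in KO mice and 6692 to 8278 CPM in WT mice, and endothelial markers to 446 to 485 CPM in KO mice and 379 to 455 CPM in WT mice. Their part in the Hspb1 values was not tested. Of the other small heat shock genes, 5 of 7 were tested and 0 called by edgeR (0 at an unadjusted p under 0.05), with a median log2 fold change of -0.05. The alpha-crystallin gene Cryab was at 13.1 ± 1.09 CPM in KO mice and 14.4 ± 1.56 CPM in WT mice, Hspb6 at 7.85 ± 1.245 CPM in KO mice and 7.26 ± 1.05 CPM in WT mice, and Hspb8, a partner of BAG3, at 13.9 ± 1.21 CPM in KO mice and 14.4 ± 1.69 CPM in WT mice.

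Hsph1 encodes HSP110, which exchanges the nucleotide on HSP70 and, with it, pulls apart aggregates. Its locus is chr5:149614287-149636376 (minus strand; ENSMUSG00000029657.15), and its reads were divided among several of 11 listed transcripts. Hsph1 was the most variable member, at 26.8, 22.0 and 12.5 CPM in KO mice and 26.3, 18.6 and 17.2 CPM in WT mice. The highest library was 2.15 times the lowest, and the libraries KO 1 and WT 1 were alike at the top. Group means were 20.4 ± 7.31 CPM in KO mice and 20.7 ± 4.90 CPM in WT mice, with a log2 fold change of -0.018 ± 0.28 (95% interval -0.66 to 0.62, edgeR adjusted p = 0.986). Without KO 3 the log2 fold change was 0.24 and without WT 1 it was 0.19 (edgeR adjusted p = 0.651 and 0.844), so its direction rested on single libraries. Transcripts with a retained intron held 10.4, 11.99 and 21.1% of Hsph1 reads in KO and 10.1, 14.2 and 21.4% in WT (exact permutation test, p = 0.9). KO 3 and WT 3, the lowest library of each group in CPM, had the highest such share. Among 9760 other genes with a mean of at least 10 CPM, the pattern over the 6 libraries most like that of Hsph1 was that of Nfya, a subunit of the CCAAT-box factor NF-Y. The root mean square difference of centred log2 CPM was 0.0707 for Nfya, 0.0946 for Xndc1, 0.101 for Zfp60, 0.102 for Ebf2 and 0.104 for Pml. The nearest member was Hsp90aa1, at rank 1676.

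Hspa8 encodes HSC70, the HSP70 of unstressed cells, which folds new proteins and uncoats clathrin vesicles. It lies at chr9:40800984-40810087 (plus strand; ENSMUSG00000015656.17). Hspa8 was at 902, 860 and 805 CPM in KO mice and 829, 771 and 894 CPM in WT mice. The groups overlapped through most of their range, and the highest library was only 1.17 times the lowest. The means were 856 ± 48.4 CPM in KO mice and 831 ± 61.5 CPM in WT mice, a log2 fold change of 0.042 ± 0.10 (95% interval -0.20 to 0.28, edgeR adjusted p = 0.908). Its 2 main coding transcripts held 46.0 to 56.4% and 38.2 to 47.4% of its reads. The coding sequence of Hspa1a matches that of Hspa8 at 75.83% of aligned bases, far less than it matches Hspa1b.

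Dnajb1 encodes HSP40, the J-domain protein that delivers clients to HSP70 and stirs its ATPase. Its locus is chr8:83608193-83612653 (plus strand; ENSMUSG00000005483.10). Dnajb1 was at 21.2, 20.6 and 21.4 CPM in KO mice and 22.1, 22.8 and 25.6 CPM in WT mice. In CPM, all 3 KO libraries lay within a narrow band just below the WT libraries, among which WT 3 was highest. In TPM the groups overlapped, with KO 1 at 9.28 and WT 1 at 9.10. The means were 21.1 ± 0.435 CPM in KO mice and 23.5 ± 1.82 CPM in WT mice, with a log2 fold change of -0.16 ± 0.10 (95% interval -0.39 to 0.08, edgeR adjusted p = 0.573), and it was -0.09 without WT 3. Of 21 other genes of the cytosolic HSP70 system, 0 were called by edgeR, and the median log2 fold change was -0.01. At an unadjusted p under 0.05, 0 were higher and 4 lower in KO, beside 5.62% and 7% of all genes. Hspa14, a ribosome-associated HSP70, averaged 20.6 ± 1.89 CPM in KO mice and 29.2 ± 3.66 CPM in WT mice (edgeR adjusted p = 0.221). Stub1, the ubiquitin ligase CHIP that acts on HSP70 clients, averaged 66.3 ± 2.96 CPM in KO mice and 82.4 ± 7.004 CPM in WT mice (edgeR adjusted p = 0.258). Hspbp1, an HSP70 nucleotide exchange factor, averaged 16.1 ± 0.669 CPM in KO mice and 20.1 ± 1.87 CPM in WT mice (edgeR adjusted p = 0.315). In each of these 3 genes, named for the smallest edgeR p of the list, the KO libraries lay below all WT libraries. Of the 21 genes, 5 were below in every KO library and 2 above, beside 10.3% and 9.07% of all genes. Bag3, a heat-inducible HSP70 partner in autophagy, had overlapping groups at 22.4 ± 3.32 CPM in KO mice and 22.4 ± 1.83 CPM in WT mice.

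Hsp90aa1 encodes the inducible HSP90 isoform, HSP90-alpha. It lies at chr12:110690605-110702728 (minus strand; ENSMUSG00000021270.13), and its main transcript held 70.9 to 76.6% of its reads. Hsp90aa1 was at 251, 249 and 195 CPM in KO mice and 269, 292 and 297 CPM in WT mice. In CPM the groups did not overlap, with KO 3 well below the other KO libraries. In TPM they overlapped narrowly, with KO 1 at 191.3 and WT 3 at 190.95. The means were 232 ± 31.9 CPM in KO mice and 286 ± 15.0 CPM in WT mice, a fold of 0.810 and a log2 fold change of -0.30 ± 0.12 (95% interval -0.57 to -0.034, edgeR adjusted p = 0.336). Without KO 3 the log2 fold change was -0.19 (edgeR adjusted p = 0.460), more than 1.5 times smaller. The unadjusted p was under 0.05 in 14 of 17 alternative fits of Hsp90aa1, many of which reprocess the same 6 libraries. It was not under 0.05 without KO 3, without WT 2 or without WT 3. Hsp90ab1, the constitutive HSP90 gene, was at 927 ± 72.1 CPM in KO mice and 899 ± 28.5 CPM in WT mice (edgeR adjusted p = 0.900). Hsp90aa1 made up 27.9, 27.0 and 20.1% of the TPM of both HSP90 genes in KO and 31.1, 29.2 and 31.7% in WT. These shares did not overlap, and the exact permutation test gave p = 0.1, the smallest possible. The Hspa8 to Hsp90aa1 TPM ratio did not overlap either, at 3.72 ± 0.557 in KO and 2.79 ± 0.121 in WT (exact permutation test, p = 0.1). The share and the ratio both contain the same Hsp90aa1 values, so they are not separate results. Over the 17 combined quantities, the Benjamini-Hochberg adjusted p of each permutation test was 0.68.

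In CPM, the libraries for Hsp90aa1 ran from WT 3 down through WT 2, WT 1, KO 1 and KO 2 to KO 3. This order was shared by 196 of the genes tested (1.2%). Of 8 proliferation genes, 5 had that same order. The 8 proliferation genes together summed to 541, 334 and 204 CPM in KO 1 to 3 and to 716, 769 and 880 CPM in WT 1 to 3. All 8 were lower in KO at an unadjusted p under 0.05, beside 7% of all genes. By edgeR 0 of them were called, with a median log2 fold change of -1.27. Their part in the Hsp90aa1 values was not tested. Of 14 other genes of the HSP90 system, 0 were called by edgeR, and the median log2 fold change was -0.06. At an unadjusted p under 0.05, 0 were higher and 2 lower, beside 5.62% and 7% of all genes. Stip1, the adaptor HOP that links HSP70 to HSP90, averaged 44.3 ± 5.68 CPM in KO mice and 55.4 ± 3.62 CPM in WT mice (edgeR adjusted p = 0.315). Cacybp, which binds HSP90 and calcyclin, averaged 30.1 ± 2.15 CPM in KO mice and 37.1 ± 3.03 CPM in WT mice (edgeR adjusted p = 0.291). In both, named for their small edgeR p, the KO libraries lay below all WT libraries. Of the 14 genes, 3 were below in every KO library and 0 above, beside 10.3% and 9.07% of all genes. Fkbp5, an HSP90 partner of steroid receptors that glucocorticoids induce, was at 27.7, 37.1 and 136 CPM in KO mice and 31.6, 32.9 and 28.5 CPM in WT mice (edgeR adjusted p = 0.446). Its high value was that of KO 3 alone.

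**Figure D3:**
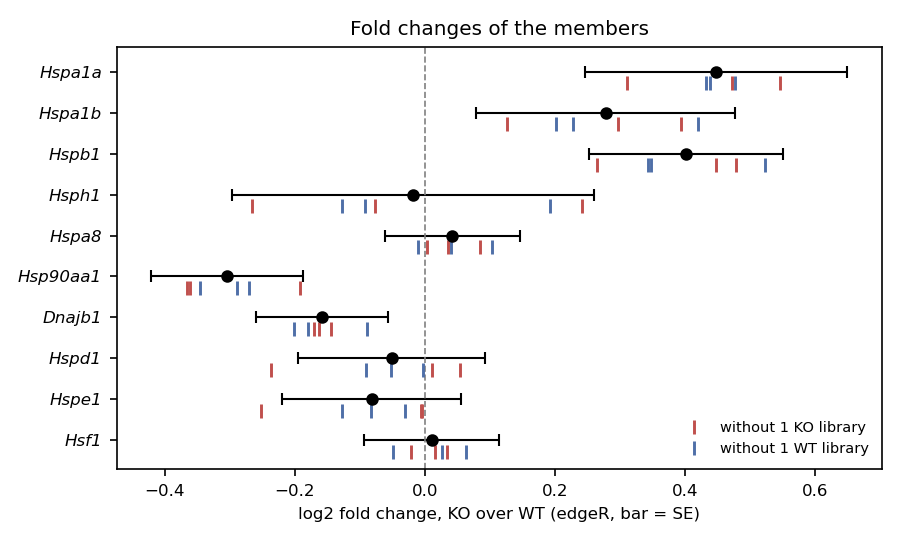
Log2 fold change, KO over WT, of each heat shock gene from edgeR, with its SE as the error bar, beside the values obtained when each library was left out in turn. Hspb1, Hspa1a and Hspa1b stay above 0 and Hsp90aa1, Dnajb1 and Hspe1 below 0 in every leave-one-out fit, while Hsph1, Hspa8, Hspd1 and Hsf1 cross it.

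Hspd1 and Hspe1 encode the mitochondrial chaperonin HSP60 and its HSP10 lid, and they stand head to head on chromosome 1. Hspd1 is at chr1:55077835-55088243 (minus strand; ENSMUSG00000025980.14) and Hspe1 at chr1:55088132-55091307 (plus strand; ENSMUSG00000073676.4). These annotated ranges overlap at their starts, and how strand entered the counting is not stated. 1 transcript of Hspd1 held at least 98.95% of its reads and 1 of Hspe1 at least 96.79%. Hspd1 was at 116, 158 and 109 CPM in KO mice and 132, 125 and 140 CPM in WT mice. Hspe1 was at 41.6, 56.9 and 41.6 CPM in KO mice and 49.4, 46.4 and 52.5 CPM in WT mice. In both genes KO 2 was the highest of all 6 libraries and KO 1 and KO 3 were the lowest, so that WT lay between the KO values. The log2 fold change was -0.051 ± 0.14 for Hspd1 (95% interval -0.38 to 0.28, edgeR adjusted p = 0.923). For Hspe1 it was -0.082 ± 0.14 (95% interval -0.40 to 0.24, edgeR adjusted p = 0.850). Single KO libraries decided these values. Without KO 2 they were -0.24 for Hspd1 and -0.25 for Hspe1, each lower at an unadjusted p under 0.05 but with an edgeR adjusted p of 0.429. Without KO 1 they were 0.011 for Hspd1 and -0.0066 for Hspe1, and without KO 3 they were 0.053 for Hspd1 and -0.0043 for Hspe1.

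Hspd1 and Hspe1 had the same order of all 6 libraries, which 44 of the genes tested (0.278%) had. The last places of Hspe1 were almost tied, at 41.64 CPM in KO 1 and 41.56 CPM in KO 3. In TPM this order turned, at 101.205 in KO 1 and 101.233 in KO 3. The TPM ratio of Hspe1 to Hspd1 was 1.49, 1.51 and 1.61 in KO and 1.55, 1.52 and 1.51 in WT (exact permutation test, p = 0.9), although the level of each gene varied far more. Of 9760 other genes with a mean of at least 10 CPM, Hspe1 was the one whose pattern was most like that of Hspd1 (root mean square difference of centred log2 CPM 0.0340 over 6 libraries). Next came Dkc1, a small nucleolar RNA binding pseudouridine synthase, at 0.0422, Tmed3, a cargo receptor of the early secretory pathway, at 0.0462, Cyfip2 at 0.0470 and Pigq at 0.0474. These are descriptions over 6 libraries that differ in the summed levels of cell type markers.

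Other mitochondrial chaperones and proteases did not all share that pattern. Of 15 genes, 0 were called by edgeR and 0 passed an unadjusted p under 0.05 in either direction, with a median log2 fold change of 0.06. KO 2 was the highest library for 5 of the 15. Hspa9, the mitochondrial HSP70 mortalin, was at 202 ± 30.2 CPM in KO mice and 194 ± 20.0 CPM in WT mice (edgeR adjusted p = 0.894). Grpel2, a nucleotide exchange factor of mortalin, averaged 26.2 ± 4.43 CPM in KO mice and 21.2 ± 1.798 CPM in WT mice. Clpx, the unfoldase of the ClpXP protease, averaged 42.8 ± 6.04 CPM in KO mice and 36.0 ± 1.97 CPM in WT mice, and Spg7, a subunit of an inner membrane protease, averaged 29.9 ± 3.55 CPM in KO mice and 33.7 ± 0.739 CPM in WT mice. ER chaperones were nearer to the Hspd1 pattern, with KO 2 highest for 11 of 14 genes and KO 3 or KO 1 lowest for 7 and 6 of them. Hspa5, the ER HSP70 protein BiP, was at 611, 988 and 660 CPM in KO mice and 809, 764 and 906 CPM in WT mice (edgeR adjusted p = 0.813). Of the 14 ER genes, 13 had a negative log2 fold change, with a median of -0.14, and 0 were called or passed an unadjusted p under 0.05. Manf averaged 123 ± 31.4 CPM in KO mice and 153 ± 13.7 CPM in WT mice, Pdia6 averaged 244 ± 65.0 CPM in KO mice and 297 ± 34.2 CPM in WT mice, and Pdia3 averaged 330 ± 36.9 CPM in KO mice and 363 ± 9.82 CPM in WT mice.

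**Figure D4:**
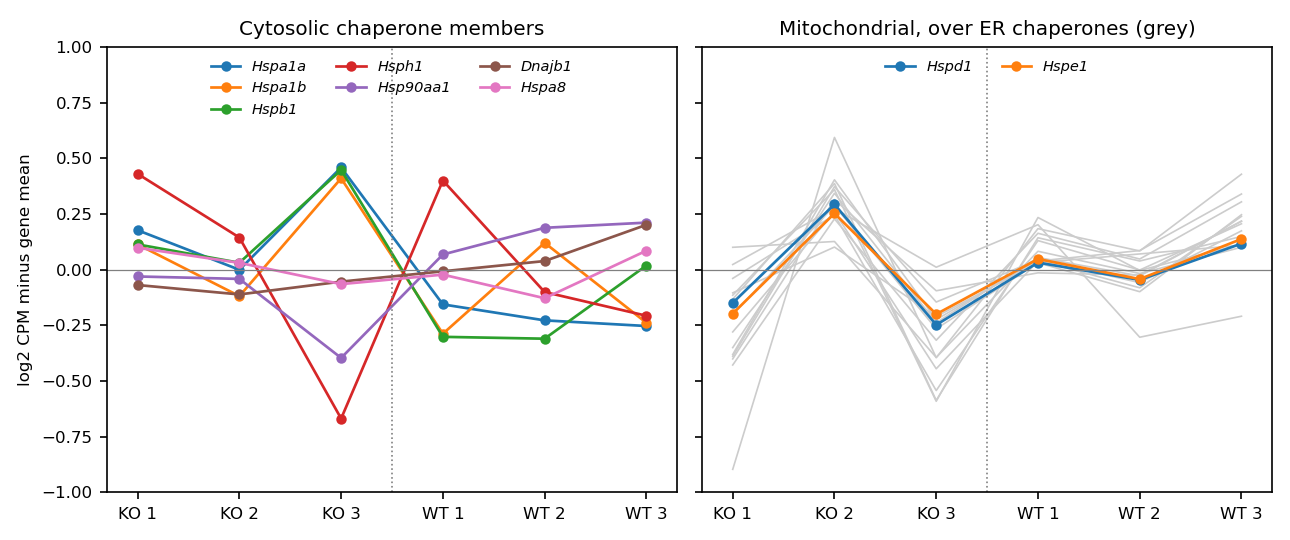
Log2 CPM of heat shock genes in each library minus the gene's mean over the 6 libraries, KO left and WT right of the dotted line. Hspd1 and Hspe1 run together over the grey lines of 14 ER chaperone genes, with KO 2 highest, whereas in KO 3 Hspa1a, Hspa1b and Hspb1 are at their highest and Hsph1 and Hsp90aa1 at their lowest.

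Hsf1 encodes the factor that switches on the inducible members, and it is regulated mainly at the protein level. Its locus is chr15:76477422-76501913 (plus strand; ENSMUSG00000022556.11). Hsf1 was at 21.7, 22.8 and 21.2 CPM in KO mice and 19.9, 23.3 and 22.0 CPM in WT mice. The KO values lay within the range of the WT values. The log2 fold change was 0.010 ± 0.10 (95% interval -0.23 to 0.25, edgeR adjusted p = 0.979), and its sign turned under upper-quartile scaling (-0.013). Its reads were spread over many of 16 listed transcripts, of which Hsf1-205 held 35.4 to 50.1%. Transcripts with a retained intron held 17.2, 14.1 and 33.8% of Hsf1 reads in KO and 14.0, 21.7 and 28.2% in WT (exact permutation test, p = 0.9). As for Hsph1, KO 3 and WT 3 had the highest share of their groups. Of the other heat shock factors and their binders, 4 of 7 were tested and 0 called by edgeR (0 at an unadjusted p under 0.05). Hsf2 was at 16.3 ± 1.52 CPM in KO mice and 15.6 ± 0.806 CPM in WT mice. Hsbp1, which binds HSF1 trimers and dampens them, was at 51.3 ± 1.89 CPM in KO mice and 57.6 ± 0.836 CPM in WT mice, without overlap (edgeR adjusted p = 0.451). Hsf2bp was barely detected, at 0.547 ± 0.0717 CPM in KO mice and 0.590 ± 0.129 CPM in WT mice.

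The members did not move as a block in any library. KO 3 had the highest value of 3 members (Hspa1a, Hspa1b and Hspb1) and the lowest of 4 (Hsph1, Hsp90aa1, Hspd1 and Hspe1). The median of the members' centred log2 CPM was -0.06 in KO 3, and lay between -0.04 and 0.05 in the other 5 libraries. WT 1 was the highest library for 0 members and KO 1 the lowest for 0. Other heat-inducible genes, 6 in all, included 0 called by edgeR, with a median log2 fold change of -0.09. At an unadjusted p under 0.05 there were 0 higher and 2 lower in KO, beside 5.62% and 7% of all genes. Mrpl18, a mitochondrial ribosomal protein with a heat-induced cytosolic form, averaged 19.4 ± 1.23 CPM in KO mice and 25.8 ± 1.75 CPM in WT mice (edgeR adjusted p = 0.224). Serpinh1, the collagen chaperone HSP47, averaged 227 ± 46.3 CPM in KO mice and 299 ± 19.5 CPM in WT mice (edgeR adjusted p = 0.316). Hmox1, heme oxygenase 1, was at 23.2, 41.3 and 63.2 CPM in KO mice and 29.0, 36.0 and 19.7 CPM in WT mice (edgeR adjusted p = 0.537), and like the inducible HSP70 pair it was highest in KO 3.

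The cytosolic chaperonin TRiC and prefoldin, which fold actin and tubulin, had 13 genes tested and 0 called by edgeR. Their median log2 fold change was -0.12. At an unadjusted p under 0.05, 0 were higher and 1 lower, beside 5.62% and 7% of all genes. The prefoldin gene Pfdn1 averaged 23.2 ± 2.92 CPM in KO mice and 29.7 ± 2.42 CPM in WT mice (edgeR adjusted p = 0.286). Cct7 averaged 125 ± 12.2 CPM in KO mice and 150 ± 17.8 CPM in WT mice, and Cct3 averaged 86.7 ± 4.51 CPM in KO mice and 97.4 ± 7.90 CPM in WT mice. In these 3 genes, named for the smallest edgeR p of their list, no KO library reached the lowest WT library. Of the 13 genes tested, 5 were below in every KO library and 0 above, beside 10.3% and 9.07% of all genes.

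Immediate early genes were described beside the inducible members because both groups are quick stress-response genes. Of 16 genes, 0 were called by edgeR, and the median log2 fold change was 0.24. At an unadjusted p under 0.05, 5 were higher and 0 lower in KO, beside 5.62% and 7% of all genes. Klf4 averaged 48.5 ± 2.59 CPM in KO mice and 34.4 ± 3.32 CPM in WT mice (edgeR adjusted p = 0.205). Dusp1, a MAP kinase phosphatase, averaged 15.5 ± 1.25 CPM in KO mice and 10.1 ± 1.73 CPM in WT mice (edgeR adjusted p = 0.221). Klf6 averaged 75.0 ± 12.6 CPM in KO mice and 54.6 ± 4.31 CPM in WT mice (edgeR adjusted p = 0.2502). All 3, named for the smallest edgeR p of the list, had no overlap between groups. Of the 16 genes, 5 were above in every KO library and 0 below, beside 9.07% and 10.3% of all genes. The summed level of the 16 genes was 423 to 477 CPM in KO mice and 360 to 432 CPM in WT mice, so the sums overlapped. Their part in the values of Hspa1a, Hspa1b and Hspb1 was not tested.

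**Figure D5:**
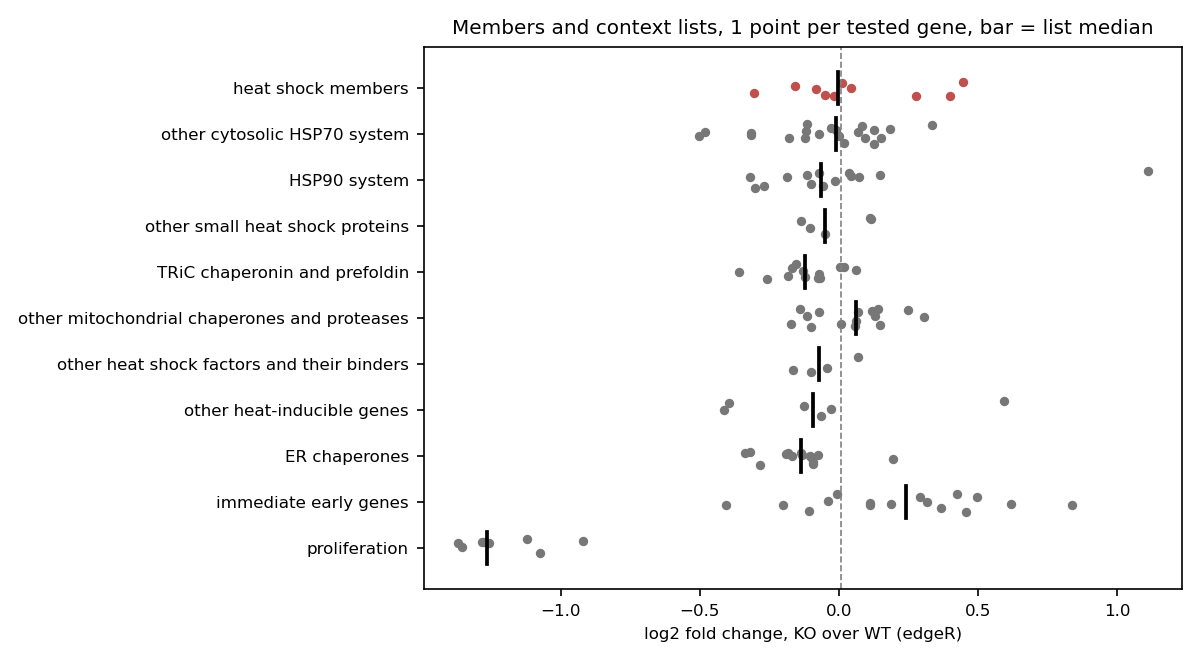
Log2 fold changes, KO over WT, of the genes of each list, with 1 point per gene and the list's median as a bar. The 10 heat shock genes centre on 0, the other chaperone lists lie between -0.14 and 0.06 in their medians, and the proliferation genes lie far below at -1.27.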

How the data were processed

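Whole pancreas of 3 KO and 3 WT mice was profiled by stranded mRNA sequencing, per the labels' protocols. Per the submitters' processing notes, bcl2fastq, Salmon 0.13.1, DESeq2 1.24.0 and the build mm10 were used. The files the authors deposited per library hold estimated counts, TPM values and effective lengths from Salmon for 116248 transcripts, from a transcript set that no source used here names. Of these, 115995 matched GENCODE M21 (GRCm38), and the others held 0.0341 to 0.0458% of the reads. The authors also deposited a table of scaled signal for the whole series, which is not counts and entered 1 alternative only.

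Estimated counts were summed to 35527 genes (Python 3.11.15, pandas 2.3.3) and rounded to whole numbers. The test was the quasi-likelihood test of edgeR 4.0.16 (R 4.3.3) after TMM scaling and filterByExpr, which left 15805 genes. A gene was called at a Benjamini-Hochberg adjusted p under 0.05 over all of these. The biological coefficient of variation was 18.4%. CPM values are TMM-scaled, and errors are SDs over 3 libraries. TPM values were summed per gene for levels between genes. Combined quantities were compared by an exact two-sided permutation test. Each library was its own sample: replicates differed by 22.5 to 48.3 in chi-square per degree of freedom. Alternatives were DESeq2 1.42.0, limma 3.58.1 with voom, other scalings and filters, a length offset, the scaled table as log2(value + 1), Hspa1a and Hspa1b summed, and leaving libraries out. Replicate numbers follow sample order only and pair no samples.

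The 10 genes, the lists and the markers were chosen with earlier results of these data known. Named genes are the 10 members, the 3 genes of smallest edgeR p of each list other than proliferation, Hspa9, Hsp90ab1, Hspa5, Bag3 and Hsf2, and the 5 genes of most similar pattern for Hspd1 and for the most variable member. Proliferation genes and cell type markers are given as list sums, apart from the endocrine markers named. Ddx3y and these endocrine markers were named after their values were seen.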

Additional observations from a re-analysis of the deposited data

How the results depend on the processing

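In 168 alternative fits of the members' log2 fold changes, 0 members were called, with adjusted p from 0.223 to 0.998. Direction held in every fit for Hspa1a (0.31 to 0.58), Hspa1b (0.13 to 0.42), Hspb1 (0.26 to 0.52), Hsp90aa1 (-0.40 to -0.19), Dnajb1 (-0.20 to -0.089) and Hspe1 (-0.25 to -0.0043). It turned in 10 fits, all of members whose main log2 fold change was near 0 (-0.051 to 0.042). Hsph1 was at 0.24 without KO 3, 0.19 without WT 1 and 0.13 without WT 1 and KO 2 together. Hsf1 was at -0.013 with upper-quartile scaling and -0.083 without WT 1 and KO 2 together. Leaving out 1 library at a time gave -0.27 to 0.24 for Hsph1, -0.011 (without WT 2) to 0.10 for Hspa8, -0.24 to 0.053 (without KO 3) for Hspd1 and -0.050 (without WT 1) to 0.062 for Hsf1. The median log2 fold change of all genes was 0.0069 with TMM and -0.017 with upper-quartile scaling.

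Over all genes, edgeR called 0 higher and 0 lower in KO. DESeq2 called 132 higher and 304 lower, limma-voom 1 and 1, the fit without a filter 0 and 1, and the fit without WT 1 and KO 2 together 1 and 1. Leaving out 1 library at a time gave 0 to 87 higher and 0 to 275 lower, the upper values being those without KO 1. The cause was not tested. No paired analysis was possible because the labels give no shared replicate numbers. The precision of Hspa1a and Hspa1b is limited by their few reads, and that of all members by 3 libraries per group.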
